A study of Homo sapiens with 8 samples.

Results

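The cluster of miR-221 and miR-222 comprises a pair of miRNA hairpins that lie next to each other on the X chromosome, and both arms of each hairpin were examined, namely hsa-miR-221-3p, hsa-miR-221-5p, hsa-miR-222-3p and hsa-miR-222-5p, written without the species prefix from here on. The members were taken by name from the count table and not by a measured value, although earlier results of these data were known. They are 4 of the 3112 miRNAs listed, of which 1482 are known miRNAs and 1630 are numbered predictions of the authors. Small RNA was sequenced from 8 samples of 786O, a human cell line established from a clear cell renal cell carcinoma (ccRCC). The NC group (genotype label "negative control", n = 4) received a control plasmid and the circSOD2-sh group (n = 4) a plasmid encoding a short hairpin RNA against circSOD2, a circular RNA formed from exons of SOD2, the gene of the mitochondrial superoxide dismutase. All 8 samples shared the culture medium, the lipid-based transfection and, per the labels, RNA extraction 48 h afterwards, whereas the study's methods describe lentiviral infection with puromycin selection for knockdown in ccRCC cells. The shRNA used is not named in the labels, every sample comes from the same line, and nothing states that replicates were separate cultures, so p-values measure the spread between these samples, which may be technical. The level of circSOD2 itself was not analysed here. The comparison addresses which miRNAs differ in level after the knockdown of a circular RNA that could bind them.

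A miRNA hairpin is cut by Drosha and Dicer into a duplex, of which one strand is usually retained in an Argonaute protein and guides it to messenger RNAs that pair with the seed near its 5′ end. The other strand is mostly degraded, so that the abundances of the arms of a hairpin differ widely. miR-221 and miR-222 are best known as oncogenic miRNAs that repress the cell cycle inhibitors CDKN1B (p27) and CDKN1C (p57) as well as the receptor KIT, and both are processed from a shared primary transcript.

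The mature sequences are shown because the seeds decide which members can be treated as members of 1 family and which sites could be looked for in circSOD2. They are from RefSeq on GRCh38.p14 and are written 5′ to 3′, with capitals for the seed, bases 2 to 8. A RefSeq sequence was matched for 3 of the 4 members, the one without being miR-221-5p.
miR-221-3p: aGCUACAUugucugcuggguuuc
miR-222-3p: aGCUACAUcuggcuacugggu
miR-222-5p: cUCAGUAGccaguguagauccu
The 3p arms share the seed GCUACAU and their first 8 bases, and 18 of 24 aligned positions (75.0%) are identical, with the differences in the rest of the sequence. miR-222-5p has another seed, UCAGUAG. Of the 1482 known miRNAs in the table, 1298 had a RefSeq sequence, and among these no miRNA outside the cluster carried either seed.

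The mature miR-221-3p is encoded at chrX:45746180-45746202, miR-222-3p at chrX:45747036-45747056 and miR-222-5p at chrX:45747073-45747094, all on the minus strand of GRCh38. The hairpins MIR221 (chrX:45746157-45746266) and MIR222 (chrX:45747015-45747124) are each 110 bases long, with 748 bases between them, and 76 of 124 aligned hairpin positions (61.3%) are identical. In GENCODE release 29 both lie within the gene MIR222HG (chrX:45745211-45770274, minus strand). They are in an intron of transcript MIR222HG-201 and outside transcript MIR222HG-202.

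For the question of direct pairing, the circle of 462 bases formed by 3 exons of SOD2 was searched, across its junction as well, on the strand of the RNA. The heptamer complementary to the seed of the 3p arms (AUGUAGC) and that for miR-222-5p (CUACUGA) had 0 matches each. At least 1 such match was present for 22 (5.46%) of the 403 known miRNAs tested that had a sequence. The absence of a match says only that these letters do not occur in this circle.

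Depth was 6386872 to 9245044 counts per NC library and 3743860 to 4208276 per circSOD2-sh library, and the predicted miRNAs took 58.1% to 63.8% of the NC counts against 3.54% to 4.93% of the circSOD2-sh counts. Levels are given as normalized CPM, that is CPM (counts scaled to a common library size) after TMM scaling, a procedure that sets the trimmed mean of the miRNAs equal between libraries, with factors of 0.697 to 0.733 for NC libraries and 1.33 to 1.48 for circSOD2-sh libraries. The edgeR quasi-likelihood test at an adjusted p of 0.05 called 298 miRNAs higher and 290 lower in circSOD2-sh, and with library totals as the only scaling 613 and 158. The summed kidney tubule and epithelial markers were at 4146 to 5084 normalized CPM over NC libraries and 3598 to 3969 over the others. Most of this sum was miR-200b-3p. The marker miR-204-5p, with a full range of 0 to 28.9, ran opposite to the sum. Its highest NC value, 0.898, was below its lowest circSOD2-sh value, 1.24. The part of these markers in the results was not tested. NC replicate 4 and circSOD2-sh replicate 2 stood apart in miRNAs of other cell types. Their summed stromal markers were at 605 and 251 normalized CPM against 10.6 to 31.1 in the other libraries, their endothelial markers (miR-126-3p and miR-126-5p) at 650 and 511 against 262 to 348, and their erythroid markers at 170 and 58.6 against 21.6 to 42.3. The leukocyte markers were at 17.1 and 14.6 there against 1.19 to 3.21 elsewhere, and the neural markers at 4962 in circSOD2-sh replicate 2 against 467 to 549 in the other 7 libraries. Not every listed marker took part. The stromal marker miR-143-3p reached 495 in NC and 202 in circSOD2-sh, but miR-214-3p was at most 1.12. Of the 4 leukocyte markers, 2 had at most 3 counts in every library. Called results are therefore also given without NC replicate 4 and circSOD2-sh replicate 2, where an exact test of 3 against 3 samples cannot go below 0.1.

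The cluster was abundant in 786O cells. miR-221-3p ranked 17th to 25th and miR-222-3p 19th to 31st among the known miRNAs of a library, miR-221-5p ranked 40th to 51st, and miR-222-5p ranked 130th to 155th. The ranks of miR-221-3p were 17 to 18 in NC and 24 to 25 in circSOD2-sh, and those of miR-222-3p were 19 to 21 and 30 to 31. Of the 4 members, miR-222-3p was the one that differed between the groups in level under TMM scaling, with lower values in circSOD2-sh (log2 fold change -0.43).

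The guide strands are described first. miR-222-3p had 30838, 34980, 35007 and 21991 counts in NC replicates 1 to 4, which are 4726, 5380.2, 5964 and 4938 normalized CPM. In circSOD2-sh replicates 1 to 4 it had 22945, 20613, 19405 and 23283 counts, or 3896, 3636, 3889.9 and 4137 normalized CPM. The lowest NC library was above the highest circSOD2-sh library, so the groups did not overlap. The mean was 5252 ± 547 in NC and 3889.8 ± 205 in circSOD2-sh (SD, n = 4), a fall of 25.9% in the fitted level. The log2 fold change was -0.43 with an SE of 0.085 and a 95% confidence interval of -0.62 to -0.24 (edgeR adjusted p = 0.00137, exact two-sided permutation p = 0.0286, which is the smallest that 4 samples against 4 can give).

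This was 1 member called of 4, whereas 65.7% of the 895 miRNAs tested were called in either direction, 33.3% as higher and 32.4% as lower, and 55.5% of the 463 known miRNAs tested were called. Groups did not overlap for 60.3% of all tested miRNAs. The change of miR-222-3p was close to the middle of the known miRNAs by size, since 206 of the 463 had a smaller absolute log2 fold change and the median was 0.51. Without NC replicate 4 and circSOD2-sh replicate 2 the log2 fold change was -0.53 (edgeR adjusted p = 0.000465). Relative to the median of all miRNAs in the same fit it was -0.40, against -0.43 with all libraries. Relative to the median of the known miRNAs it was -0.27, against -0.32 with all libraries.

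miR-221-3p, which has the same seed, had 36889, 39259, 37625 and 25134 counts in NC and 33531, 30058, 29005 and 32017 in circSOD2-sh. In normalized CPM these were 5653, 6038, 6410.1 and 5644 for NC and 5694, 5302, 5814 and 5689.6 for circSOD2-sh. The ranges overlapped, with NC replicates 2 and 3 above all circSOD2-sh libraries and NC replicates 1 and 4 among them. The mean was 5936 ± 365 in NC and 5625 ± 223.1 in circSOD2-sh (SD, n = 4), and the log2 fold change was -0.08 with a 95% confidence interval of -0.23 to 0.07 (edgeR adjusted p = 0.331, exact permutation p = 0.286). Of the 463 known miRNAs, 29 had a smaller absolute log2 fold change. The value moved when a library was left out, between -0.25 without circSOD2-sh replicate 3 (edgeR adjusted p = 0.052) and -0.089 without NC replicate 3, and none of these fits called it. The median of all miRNAs was -0.10 and 0.0072 in these refits, so part of the movement was shared. Relative to that median miR-221-3p was at -0.14 and -0.096, against -0.076 with all libraries. Relative to the median of the known miRNAs it was at -0.0089 and 0.026, against 0.033 with all libraries.

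Of the other strands, miR-221-5p was at 1330.3, 1587, 1851 and 1400.5 normalized CPM in the NC libraries and at 1167, 1346, 1658 and 1239 in circSOD2-sh. Replicate 3 was the highest library of both groups, and the ranges overlapped. The mean was 1542 ± 233 in NC and 1352 ± 216 in circSOD2-sh (SD, n = 4), and the log2 fold change of -0.19 had a 95% confidence interval of -0.50 to 0.12 (edgeR adjusted p = 0.247, exact permutation p = 0.286). This result depended on which libraries entered. Without circSOD2-sh replicate 3 the log2 fold change was -0.46 (edgeR adjusted p = 0.0182), and without NC replicate 4 and circSOD2-sh replicate 2 it was -0.34 (edgeR adjusted p = 0.0445). The median of all miRNAs moved as well, to -0.10 and -0.13 in these refits. Relative to that median miR-221-5p was at -0.36 and -0.21, against -0.19 with all libraries. Relative to the median of the known miRNAs it was at -0.22 and -0.080, against -0.078 with all libraries.

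miR-222-5p was the least abundant arm, with 444 to 543 counts per library in NC and 487 to 601 in circSOD2-sh. Its levels were 81.8, 83.5, 86.2 and 99.7 normalized CPM in NC and 85.2, 85.9, 103 and 107 in circSOD2-sh. The circSOD2-sh values were spread around the highest NC value. The mean was 87.8 ± 8.13 in NC and 95.1 ± 11.2 in circSOD2-sh (SD, n = 4), with a log2 fold change of 0.12 and a 95% confidence interval of -0.15 to 0.38 (edgeR adjusted p = 0.408, exact permutation p = 0.229). Its sign changed in refits, to -0.070 without circSOD2-sh replicate 3 and -0.061 without circSOD2-sh replicate 4. The median of all miRNAs in these refits was lower too, at -0.10 and -0.092. Relative to that median miR-222-5p was at 0.033 and 0.031, against 0.12 with all libraries. Relative to the median of the known miRNAs it was at 0.17 and 0.12, against 0.23 with all libraries.

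**Figure D1:**
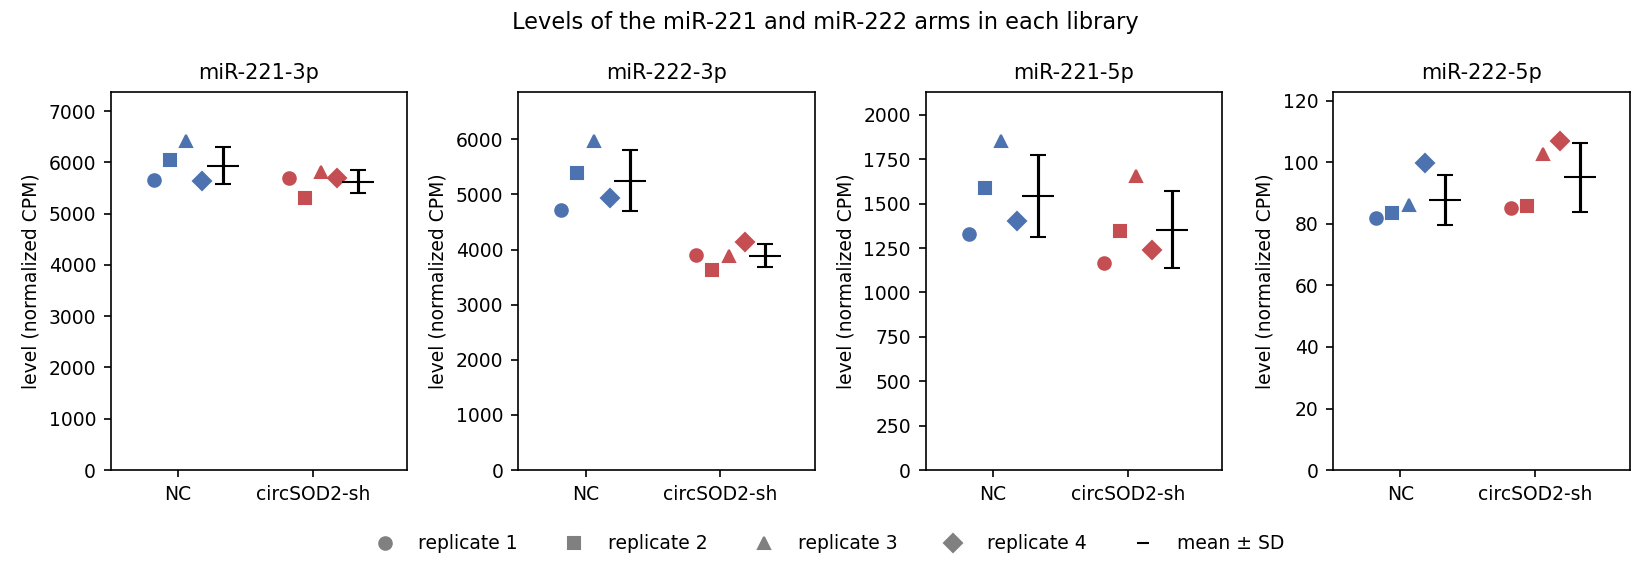
Level of each arm of miR-221 and miR-222 in normalized CPM (y axis, from 0) in the 4 NC and 4 circSOD2-sh libraries (x axis), with 1 point per library, its shape giving the replicate number, and a bar for the mean ± SD. Only for miR-222-3p do all NC points (lowest 4726) lie above all circSOD2-sh points (highest 4137).

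In the plot of levels by library the miR-221-3p points of both groups lie between 5302 and 6410.1 normalized CPM, while those of miR-222-3p fall into separate ranges. Summed over the 4 members, the level was 12818 ± 1140 normalized CPM in NC and 10962 ± 470 in circSOD2-sh (SD, n = 4), with a log2 difference of -0.22, no overlap and an exact permutation p of 0.0286. Most of this sum was the shared seed of the 3p arms, at 11188 ± 910 normalized CPM in NC and 9515 ± 397 in circSOD2-sh (log2 difference -0.23, exact permutation p = 0.0286, no overlap). Without NC replicate 4 and circSOD2-sh replicate 2 the log2 differences were -0.22 for the sum of all members and -0.23 for that of the 3p arms, both with no overlap.

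The direction of these level changes rested on how the libraries were scaled, and the share of predicted miRNAs moved with the groups. With library totals the median log2 fold change of all miRNAs in the fit was 0.96, against -0.0022 with TMM, and miR-222-3p was then higher in circSOD2-sh by 0.53 on the log2 scale (edgeR adjusted p = 0.00077). Upper-quartile factors gave 0.41 and limma on the deposited CPM gave 0.40, whereas RLE factors gave -0.48, DESeq2 -0.49, TMM on known miRNAs alone -0.38 and totals of known miRNAs -0.77. Relative to the median of all miRNAs in the same fit, miR-222-3p was between -0.57 and -0.20 over the 22 fits. Against the median of the known miRNAs it was between -0.49 and -0.25. A change of scaling alone shifts miR-222-3p and the median nearly alike (relative value -0.43 with TMM and with library totals). Agreement between scalings was thus fixed in advance and adds no support. The changes of the other members relative to all miRNAs were between -0.21 and 0.16 for miR-221-3p, between -0.36 and 0.04 for miR-221-5p and between 0.03 and 0.35 for miR-222-5p. Relative to the known miRNAs they were -0.14 to 0.11, -0.25 to -0.02 and 0.06 to 0.38.

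**Figure D2:**
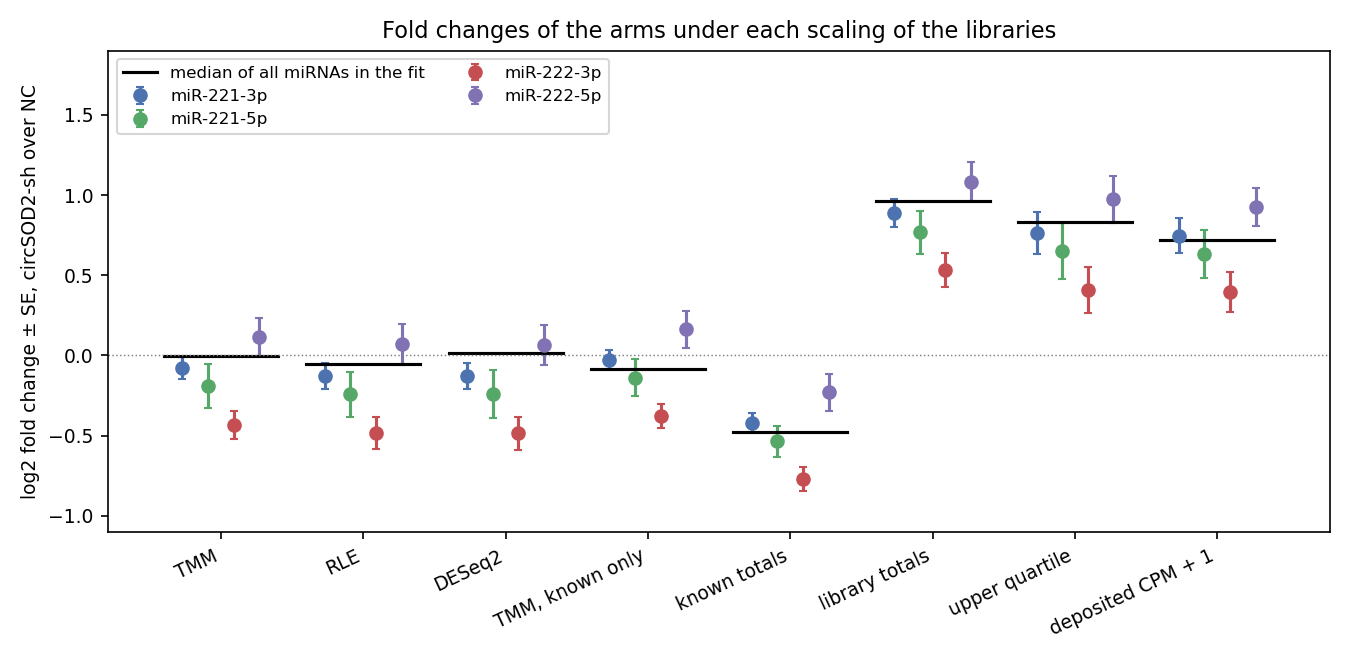
Log2 fold change of each member (y axis, circSOD2-sh over NC, points with ± SE) under 8 scalings or tests (x axis), with a black line at the median of all miRNAs in the same fit. The members move up and down together with the scaling, from -0.77 to 0.53 for miR-222-3p, and miR-222-3p is the lowest of the 4 points and below the black line under each of them. A scaling shifts all miRNAs of a library alike, so this order is largely kept by construction.

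In the plot of fold changes by scaling the members changed sign but kept their order. A scaling shifts all miRNAs of a library alike, so the kept order is no finding about the members. The share of the cluster in the counts of known miRNAs leaves out the predicted ones. It was 2.30%, 2.38%, 2.51% and 2.29% in NC and 1.69%, 1.45%, 1.59% and 1.68% in circSOD2-sh. All NC shares were above all circSOD2-sh shares, with a mean of 2.37% ± 0.0988 against 1.60% ± 0.111 (SD, n = 4, exact permutation p = 0.0286). With all listed miRNAs as the denominator the order was the opposite, 0.918% ± 0.102 in NC and 1.53% ± 0.0984 in circSOD2-sh (SD, n = 4, exact permutation p = 0.0286). Without NC replicate 4 and circSOD2-sh replicate 2 the share of known counts differed by -0.744 percentage points (circSOD2-sh minus NC) and the share of all listed counts was 0.944% against 1.58%, again with no overlap. The direction of the share therefore depended on its denominator, and ratios within a library, which need neither, are given next.

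The balance of the guide strands differed between the groups. There were 1.20, 1.12, 1.07 and 1.14 counts of miR-221-3p per count of miR-222-3p in NC and 1.46, 1.46, 1.49 and 1.38 in circSOD2-sh. Every circSOD2-sh library was above every NC library, and the mean ratio was 1.13 ± 0.0503 in NC and 1.45 ± 0.0509 in circSOD2-sh (SD, n = 4). The log2 difference of 0.35, or 1.28-fold, had an exact two-sided permutation p of 0.0286 and, adjusted over the ratios of the 3p and of the 5p arms, 0.0571, which misses 0.05.

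The same ratio was also tested, by a choice made after the data were seen, among all 46 pairs of neighbouring known hairpins on 1 strand with at most 10000 bases between them. There limma gave 0.35 with an SE of 0.083 and a 95% confidence interval of 0.16 to 0.54 (limma adjusted p = 0.00782). Of the 46 pairs 54.3% were called and 52.2% did not overlap between the groups, and 34 of them changed by at least as much as this pair, with a median absolute change of 0.64. An unequal change of neighbouring hairpins was therefore common in these libraries. Without NC replicate 4 and circSOD2-sh replicate 2 the value was 0.35 (limma adjusted p = 0.0195).

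The corresponding ratio of the 5p arms did not separate the groups. There were 16.3, 19.0, 21.5 and 14.0 counts of miR-221-5p per count of miR-222-5p in NC and 13.7, 15.7, 16.2 and 11.6 in circSOD2-sh. The mean was 17.7 ± 3.23 against 14.3 ± 2.08 (SD, n = 4), with a log2 difference of -0.30 and an exact permutation p of 0.114, unchanged by the adjustment over both ratios. The ranges overlapped.

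Within the cluster's own counts, miR-221-3p made up 46.4% ± 1.31 in NC and 51.3% ± 0.815 in circSOD2-sh, and miR-222-3p 40.9% ± 0.661 and 35.5% ± 1.32 (SD, n = 4), each with no overlap and an exact permutation p of 0.0286. miR-221-5p held 12.0% ± 0.723 and 12.3% ± 1.73 (SD, n = 4, exact permutation p = 0.771). miR-222-5p held 0.69% ± 0.0978 and 0.866% ± 0.0746 (SD, n = 4, exact permutation p = 0.0571), with overlapping ranges. Without NC replicate 4 and circSOD2-sh replicate 2 the shares were 46.3% and 51.4% for miR-221-3p and 41.0% and 35.6% for miR-222-3p, with no overlap, and those of miR-222-5p (0.645% and 0.879%) did not overlap either. The shares of the 4 members add to the whole, so they are not independent of each other. Those of the 3p arms largely repeat the ratio of the 3p arms above. Separation was usual, since 52.2% of the ratios of neighbouring hairpins did not overlap between the groups.

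The hairpins differed widely in how much of the 5p strand was present. In NC there were 25.9 ± 2.29 counts of miR-221-5p per 100 counts of miR-221-3p but 1.69 ± 0.251 counts of miR-222-5p per 100 counts of miR-222-3p (SD, n = 4). Among the 117 known hairpins with both arms tested, 42 had more 3p than 5p in NC, and 30 had a lower 5p to 3p ratio than miR-221 and 11 a lower one than miR-222.

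For miR-222 the counts of the 5p arm per 100 of the 3p arm were 1.73, 1.55, 1.45 and 2.02 in NC and 2.19, 2.36, 2.64 and 2.58 in circSOD2-sh. All circSOD2-sh libraries were higher than NC replicate 4, the highest of its group, and the mean rose to 2.44 ± 0.207 (SD, n = 4). The log2 difference of the ratio was 0.54 with an SE of 0.14 and a 95% confidence interval of 0.22 to 0.86 (limma adjusted p = 0.00794, exact permutation p = 0.0286). Without NC replicate 4 and circSOD2-sh replicate 2 it was 0.65 (limma adjusted p = 0.00517). This was again a common kind of difference, since 58.1% of the 117 hairpins were called, 36 with more and 32 with less of the 5p arm, 55.6% did not overlap, and 64 changed by at least as much as miR-222 (median absolute change 0.60).

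For miR-221 the counts of the 5p arm per 100 of the 3p arm were 23.5, 26.3, 28.9 and 24.8 in NC and 20.5, 25.4, 28.5 and 21.8 in circSOD2-sh. The ranges overlapped in part, with circSOD2-sh replicates 1 and 4 below every NC library, and the means were 25.9 ± 2.29 and 24.0 ± 3.63 (SD, n = 4). The log2 difference was -0.11 with a 95% confidence interval of -0.44 to 0.21 (limma adjusted p = 0.525, exact permutation p = 0.429). The difference between the hairpins was tested by itself, also after the data were seen. The arm ratio of miR-222 relative to that of miR-221 was higher in circSOD2-sh by 0.66 on the log2 scale, with no overlap of the groups (exact permutation p = 0.0286, the smallest possible), and by 0.81 without NC replicate 4 and circSOD2-sh replicate 2, also with no overlap. Such a comparison was not made for other pairs of hairpins, and 55.6% of single arm ratios did not overlap either.

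**Figure D3:**
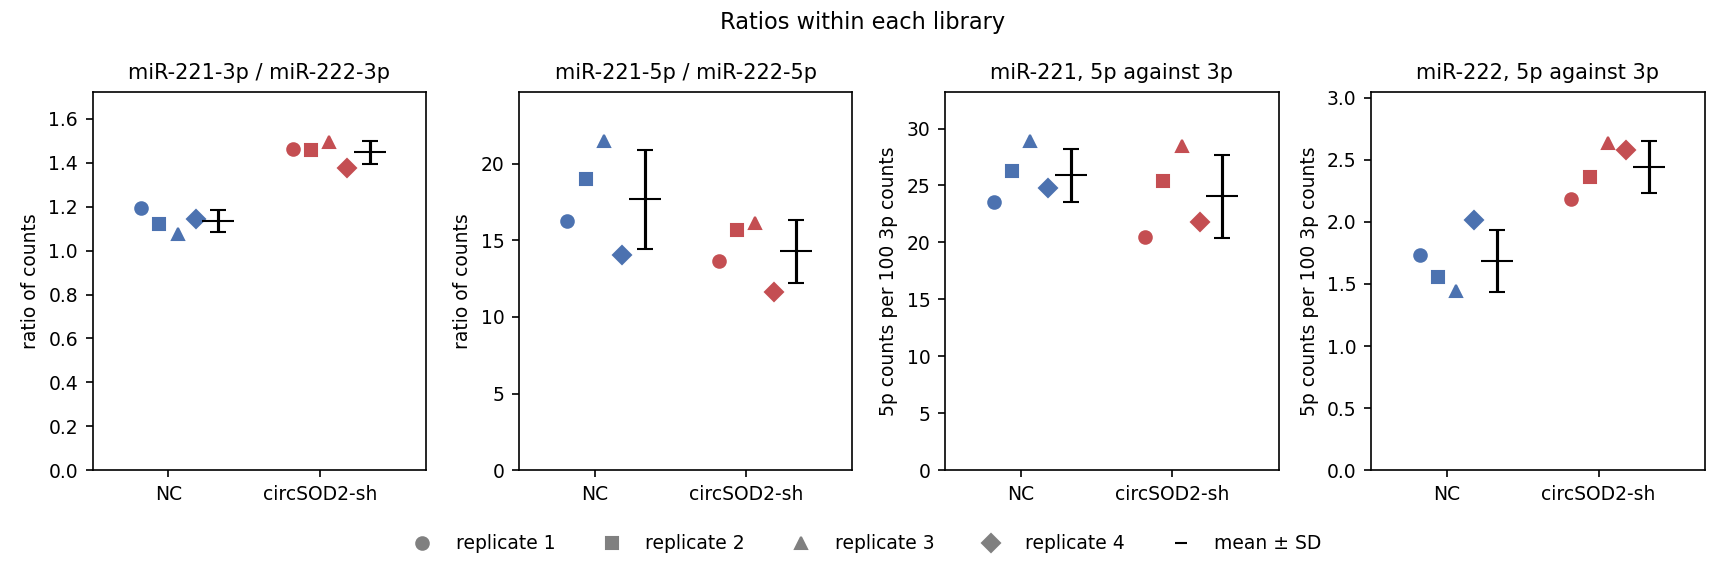
Ratios within each library (y axes, from 0, in counts per count for the first pair of panels and in 5p counts per 100 3p counts for the last pair) for the 4 NC and 4 circSOD2-sh libraries (x axis), with 1 point per library and a bar for the mean ± SD. The groups separate for miR-221-3p over miR-222-3p (at most 1.20 in NC, at least 1.38 in circSOD2-sh) and for the arms of miR-222 (at most 2.02 and at least 2.19), and overlap in the other panels.

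In the plot of ratios the separated panels are the ones that have miR-222-3p as the denominator, so these separations share that arm and are not independent of its lower level.

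**Figure D4:**
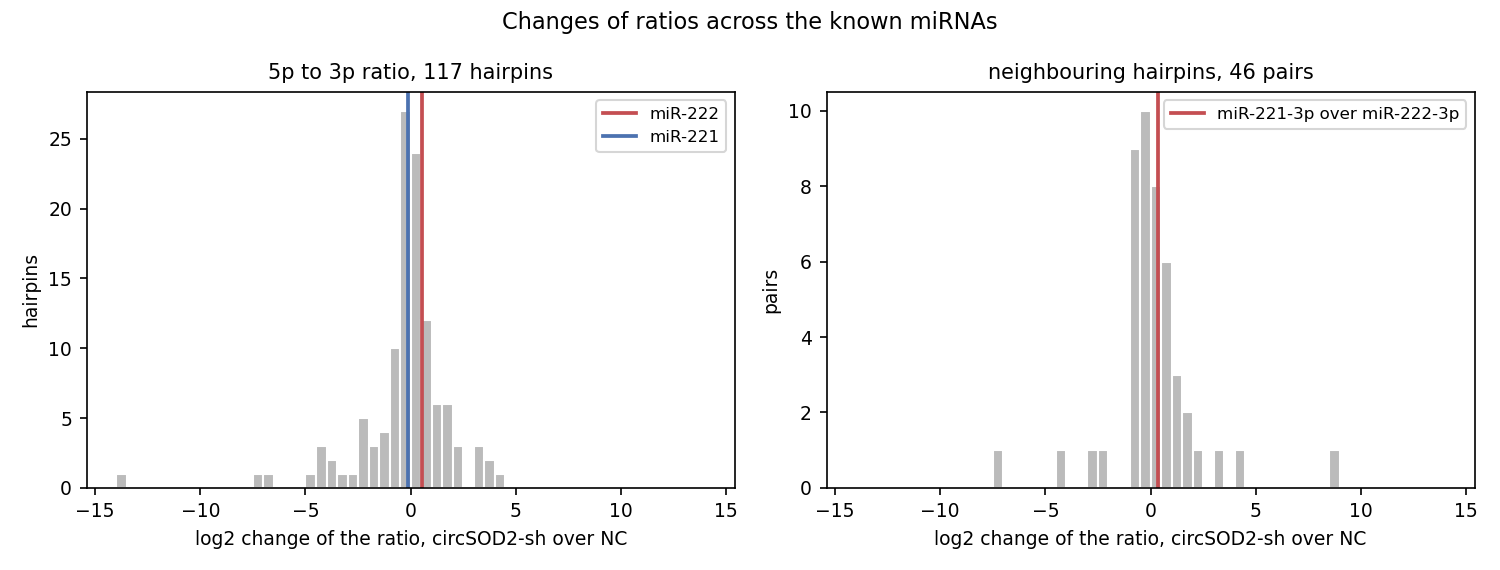
Distribution of the log2 change (x axis, circSOD2-sh over NC) of the 5p to 3p ratio over 117 known hairpins (left, y axis number of hairpins) and of the ratio of neighbouring hairpins over 46 pairs (right, y axis number of pairs). Coloured lines mark miR-222 (0.54), miR-221 (-0.11) and miR-221-3p over miR-222-3p (0.35), all within the central bars of their distributions.

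The plot of ratio changes over all hairpins shows wider tails than any value of the cluster. In the levels, too, some of the miRNAs next to the members in abundance varied far more between libraries. miR-221-3p had a mean of 5781 ± 326 normalized CPM over the 8 libraries (SD), between miR-125b-5p (6375 ± 6809) and miR-15b-5p (5458 ± 5699.5), both with a much larger spread. miR-222-3p, at 4571 ± 823, stood between miR-532-3p (4783 ± 5153) and miR-30d-5p (4550.5 ± 443). miR-221-5p, at 1447 ± 231, lay between miR-25-3p (1476 ± 115) and miR-30a-3p (1404 ± 116), and miR-222-5p, at 91.5 ± 9.86, between miR-149-5p (92.3 ± 13.7) and miR-7974 (90.4 ± 52.7). These means pool both groups, and the order was different within them. miR-532-3p, miR-125b-5p, miR-30d-5p and miR-7974 were each below their member in all 4 NC libraries and above it in all 4 circSOD2-sh libraries, with no overlap of the ranges in either group. miR-15b-5p was below miR-221-3p in NC without overlap (637 to 762 normalized CPM) and overlapped it in circSOD2-sh. The ranges of miR-25-3p and miR-30a-3p overlapped those of miR-221-5p in both groups, as did those of miR-149-5p and miR-222-5p. Within libraries, miR-30a-3p was higher than miR-221-5p in 0 NC and 3 circSOD2-sh libraries, and miR-25-3p in 1 and 2. miR-149-5p was higher than miR-222-5p in 1 NC and 3 circSOD2-sh libraries. Whether these neighbours differed from their members was not tested.

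The known miRNAs whose levels followed each member most closely over the 8 libraries are given as a description, since the libraries share their groups and scaling. For miR-222-3p they were miR-421 (Pearson r = 0.99), miR-331-5p (0.97) and let-7a-5p (0.97), and for miR-221-3p miR-548s (0.92), miR-196a-5p (0.89) and let-7f-5p (0.89). For miR-221-5p they were miR-30c-2-3p (0.93), miR-182-5p (0.91) and miR-450b-5p (0.89), and for miR-222-5p miR-619-5p (0.80), miR-301a-5p (0.72) and miR-3648 (0.71). miR-548s, miR-619-5p and miR-3648 had group means of at most 9.60 normalized CPM. Among the members themselves r was 0.80 between the 3p arms, 0.74 between the arms of miR-221 and -0.28 between the arms of miR-222.

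Other miRNAs of the X chromosome were set beside the cluster. Of 83 other mature miRNAs from the X chromosome, 45 were tested, of which 21 were called higher, 11 lower and 13 not. Over all tested miRNAs 65.7% were called (33.3% higher, 32.4% lower). Over the known ones, the like set, 55.5% were called, with 125 of 463 higher and 132 lower. Their median log2 fold change was 0.38, against -0.0022 for all tested miRNAs and -0.11 for the known ones. Of the 3 most abundant of them, miR-532-3p was at 0.393 ± 0.786 normalized CPM in NC and 9566 ± 971 in circSOD2-sh (SD, n = 4), whereas miR-361-5p (log2 fold change 0.06, edgeR adjusted p = 0.522) and miR-98-5p (-0.18, edgeR adjusted p = 0.152) were not called. The members of the miR-221 and miR-222 cluster, also on the X chromosome, were between -0.43 and 0.12 in the same fit.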

How the data were processed

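Small RNA of 8 samples of 786O cells was sequenced on an Illumina platform. The authors deposited read counts per mature miRNA without normalization and CPM whose denominator exceeded the sum of the listed counts. A further table holds the authors' own comparison (mean CPM, fold changes and p-values) and was not used. The submitters' processing notes name FastQC 0.11.2, Trimmomatic 0.36, Bowtie 1.1.1 and GRCh38, without roles, and the counting tool and miRNA annotation are not given in the sources used here. How reads were assigned between similar miRNAs, such as both 3p arms, is not given either.

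Counts were fitted over the whole table in R 4.3.3 with edgeR 4.0.16 (filterByExpr with a minimum count of 10, TMM, quasi-likelihood test, prior count 0.125, Benjamini-Hochberg adjustment). Arm ratios and ratios of neighbouring hairpins were fitted with limma 3.58.1 on log2 values after adding 0.5 normalized CPM to each arm. Single values were compared with exact two-sided permutation tests (scipy 1.17.1), for levels on log2 of normalized CPM plus 1. Alternatives were DESeq2 1.42.0, other scalings and filters, a prior count of 2, limma on deposited CPM (log2, with 1 or 0.1 added), a replicate block, and libraries left out. Fold changes on deposited CPM understate changes of low values. The widest Wilson 95% interval of a member's share of known counts was 1.059% to 1.085%, for miR-221-3p in NC replicate 4. A floor of 3 counts is 0.46 to 0.674 normalized CPM. Both are for counting error alone. No pair of libraries in a group was alike enough to be 1 library (chi-square per degree of freedom 11.4 to 162). The fits were tested on simulated data, in which both groups had the same composition apart from the miRNAs raised or lowered. That test therefore does not cover the unequal share of predicted miRNAs in the real groups.

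The members and lists were chosen with earlier results of these data known. Named miRNAs are the members, the 3 most correlated known miRNAs for each, the neighbours in mean level, the 3 most abundant of the X chromosome list and any sharing a seed. A further list of miRNAs is not reported here. Sequences were read from RefSeq (GRCh38.p14) and gene positions from GENCODE release 29. Python 3.11.15 with pandas 2.3.3 was used for tables and matplotlib 3.10.9 for figures.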

Additional observations from a re-analysis of the deposited data

How the results depend on the processing

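Scaling decided the sign of the levels. The log2 fold changes of miR-221-3p, miR-221-5p, miR-222-3p and miR-222-5p were 0.89, 0.77, 0.53 and 1.08 with library totals, 0.77, 0.65, 0.41 and 0.97 with upper-quartile factors, 0.75, 0.63, 0.40 and 0.93 with limma on log2 of CPM plus 1, and 0.75, 0.63, 0.40 and 0.94 with plus 0.1. All 4 members were called higher in each of these fits. Totals of known miRNAs gave -0.42, -0.54, -0.77 and -0.23. There miR-221-3p and miR-221-5p were called lower along with miR-222-3p (edgeR adjusted p = 0.000299 and 0.00134 for the miR-221 arms). miR-222-5p was not called (edgeR adjusted p = 0.102). RLE factors, DESeq2, TMM on known miRNAs, both other filters and the prior count of 2 kept each of the 4 on its side of the threshold and in its direction.

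Leaving out 1 library at a time gave -0.25 to -0.09 for miR-221-3p, -0.46 to -0.14 for miR-221-5p, -0.59 to -0.42 for miR-222-3p (edgeR adjusted p 0.000553 to 0.00233) and -0.070 to 0.14 for miR-222-5p, which was at -0.070 without circSOD2-sh replicate 3 and at -0.061 without circSOD2-sh replicate 4. The median log2 fold change of all miRNAs moved in these refits as well, from -0.15 without circSOD2-sh replicate 2 to 0.067 without NC replicate 4. miR-221-5p was called lower without circSOD2-sh replicate 3 (-0.46) and without NC replicate 4 and circSOD2-sh replicate 2 (-0.34). The arm ratio of miR-222 kept its call in all 14 alternatives and was 0.47 to 0.63 with 1 library left out, and that of miR-221 -0.20 to -0.04. The ratio of the 3p arms was 0.33 to 0.38 with 1 library left out (limma over 46 pairs 0.35, with 0.34 without circSOD2-sh replicate 3, 0.36 without NC replicate 4 and adjusted p 0.0102 to 0.0292 with 1 library left out), and that of the 5p arms -0.41 to -0.20. The cluster's share of known counts differed by -0.80 to -0.72 percentage points with 1 library left out, and its share of all listed counts differed by 0.616. Exact tests of 3 against 4 samples cannot go below 0.0571.

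miRNAs called higher numbered 613 with library totals, 570 with upper-quartile factors, 123 with TMM on known miRNAs, 93 with their totals, 149 at a mean of at least 50 counts, and 559 and 553 with limma. Those called lower numbered 158, 160 and 123 with the first 3 of these and 163 with limma in both forms. With 1 library left out they were 256 to 303 and 279 to 358. Hairpins with a called arm ratio numbered 43 at a mean of at least 50 counts and 62 to 74 with 1 library left out.

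With the replicate block, miR-221-5p was called lower (-0.19, edgeR adjusted p = 0.0156) and no other call on a member's level or arm ratio changed. The labels do not say that the numbers pair the samples, and the correlations of same-numbered deviations were 0.26, -0.0994, 0.0965 and -0.174, and not every sample correlated best with its own number. The cause of these differences was not tested.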
